A study of Mus musculus with 26 samples.

Results

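The 37 genes described here encode the transporters that carry zinc, iron, manganese, copper and magnesium across the membranes of mouse cells, together with the metallothioneins that bind zinc and copper in the cytosol. They were taken by symbol from the array, as all genes of the zinc exporter family Slc30 and the zinc importer family Slc39, with Slc11a1, Slc11a2, Slc40a1, Slc31a1, Slc31a2, Atp7a, Atp7b, Slc41a1, Slc41a2 and Mt1 to Mt4. This gave 10 genes of the zinc exporter family, counted as zinc exporters although Slc30a10 exports manganese. There were also 14 zinc importers, 3 iron and manganese transporters, 4 copper transporters, 2 magnesium transporters and 4 metallothioneins. Together these were 37 of the 19505 genes with a symbol. Each was measured by 1 probe set.

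The samples were 26 Panc02 tumors, grown from a mouse pancreatic adenocarcinoma line after subcutaneous injection of 200000 cells into young adult male C57BL/6 mice, whose immune system is intact. All mice ate the purified diet AIN-93G. The HMB groups received it with beta-hydroxy-beta-methylbutyrate (HMB), a leucine metabolite, from 1 week before the injection. The anti-PD1 groups were given 200 µg of antibody against the T cell checkpoint receptor PD-1 every 3 days, and by the study's methods the other mice were given an isotype antibody. The tumors fell into a control group of 6, an HMB group of 7, an anti-PD1 group of 6 and an anti-PD1 + HMB group of 7. Each array held RNA of 1 whole homogenized tumor that grew under the skin and not in the pancreas. In such bulk samples, fewer cells of a type and less RNA per cell cannot be told apart.

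Zinc exporters of the Slc30 family move zinc out of the cytosol, either across the plasma membrane or into vesicles, Golgi and mitochondria, and importers of the Slc39 family bring it back into the cytosol. Free zinc in the nucleus activates the transcription factor Mtf1, which binds metal response elements in the promoters of Mt1, Mt2 and Slc30a1 and raises their transcription. Macrophages take up iron from dying red cells and return it to the circulation through ferroportin, the product of Slc40a1. Slc11a1 encodes a transporter known for withdrawing iron and manganese from macrophage phagosomes. Only its RNA was measured here, and whether its product works in this mouse strain was not examined. Neutrophils starve microbes of zinc and manganese with calprotectin, a dimer of S100a8 and S100a9.

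The promoters of Mt1, Mt2 and Slc30a1 are shown because they belong to Mtf1 targets and hold the metal response element core TGCACNC or TGCGCNC, read on both strands. The stretches run from 250 bases before to 30 bases after the RefSeq gene start on build GRCm38.p6, all on the plus strand, with the matches in capitals.
Mt1, chr8:94178839-94179118: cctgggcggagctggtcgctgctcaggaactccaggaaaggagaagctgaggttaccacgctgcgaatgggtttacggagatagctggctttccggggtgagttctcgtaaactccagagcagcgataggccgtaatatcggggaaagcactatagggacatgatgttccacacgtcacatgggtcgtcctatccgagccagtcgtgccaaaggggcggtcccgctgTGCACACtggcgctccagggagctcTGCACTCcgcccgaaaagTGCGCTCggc
Mt2, chr8:94172368-94172647: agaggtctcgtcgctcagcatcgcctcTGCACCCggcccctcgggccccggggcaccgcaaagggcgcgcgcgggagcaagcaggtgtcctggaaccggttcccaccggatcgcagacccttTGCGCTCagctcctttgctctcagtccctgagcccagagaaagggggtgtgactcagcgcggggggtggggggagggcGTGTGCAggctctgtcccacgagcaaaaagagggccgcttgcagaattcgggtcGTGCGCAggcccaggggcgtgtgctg
Slc30a1, chr1:191906531-191906810: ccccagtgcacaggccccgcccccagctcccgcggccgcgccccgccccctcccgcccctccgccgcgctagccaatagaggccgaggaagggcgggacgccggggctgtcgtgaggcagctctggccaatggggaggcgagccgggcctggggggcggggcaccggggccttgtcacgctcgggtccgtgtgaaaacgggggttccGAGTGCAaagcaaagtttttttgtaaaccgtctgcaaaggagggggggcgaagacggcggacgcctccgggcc
The Mt1 stretch held 3 matches, which began at positions -23, 2 and 20 from the start counted as 0, and the Mt2 stretch held 4 matches at -223, -128, -50 and 4. Slc30a1, the zinc exporter of the plasma membrane, had a match at -43 and another at 30, which lies past the end of the printed stretch. A match of these letters is a description of the window and not a binding site. The RefSeq starts were not checked against other evidence of where transcription begins. Elements outside the searched windows were not counted, so the matches need not be the full set of a gene.

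A RefSeq promoter entry, which reaches slightly past the printed end, was found for 31 of the 37 genes, as 36 promoters. Of these, 21 (58.3%) held at least 1 match, against 8444 of all 32851 mouse promoters (25.7%). With overlapping matches counted once, at least 2 were found in 7 (19.4%) of the member promoters and in 6.14% of all promoters. The 4 matches of Mt2 were reached by 0.295% of all promoters. The zinc exporter Slc30a4 held 3 separate matches and Slc30a10 held 2, one of them read on both strands, whereas the promoters of Slc11a1 and Slc30a6 held 0. The metallothionein genes are neighbors on chromosome 8, in the order Mt4, Mt3, Mt2 and Mt1, with 6265 bases between the starts of Mt2 and Mt1.

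The deposited values are processed log values, taken here as log2, and ran from 1.08 to 19.3. Array medians lay between 6.97 and 7.11, and any 2 arrays correlated at 0.932 to 0.992 across genes. The 5222 negative control probe sets had a 95th percentile of 10.9 to 11.3 per array, and 3772 to 4489 genes per tumor lay above it. Of 12 epithelial markers, 2 exceeded this level in all 26 tumors, the keratins Krt8 and Krt18, and 5 did so in 0 tumors. Cdh1 exceeded it in 14 tumors, Krt7 in 10, and Krt19, Epcam and Msln in 1 each. Of the 12 acinar and islet markers of the pancreas, 0 did so in any tumor. Of 20 macrophage markers, 12 exceeded it in all tumors. Skeletal muscle markers were high in HMB tumor 5 and in anti-PD1 + HMB tumors 4 and 6, with mean scores over the muscle list of 5.73, 5.14 and 3.92 against -1.28 to -1.07 in the control tumors.

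Of the 37 metal genes, 8 lay above the negative controls in all 26 tumors: Mt1, Mt2, Slc11a1, the exporters Slc30a4, Slc30a6 and Slc30a7, and the importers Slc39a6 and Slc39a9. A further 10 did so in 1 to 25 tumors and 19 in 0. The 19 included Slc40a1, Slc11a2 and Slc39a8, whose values therefore lay in the range of probe sets that match no transcript. They also included Slc30a8, the zinc transporter of insulin granules, and Mt3 and Mt4, which are known mainly from brain and stratified epithelia.

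The most variable members were Slc40a1 and Slc11a1. Slc40a1 had an SD of 1.31 over the 26 tumors, larger than that of 97.7% of all genes, and Slc11a1 had an SD of 0.86, larger than that of 92.6%. The importers Slc39a2 and Slc39a4 followed, each with an SD of 0.58. The third iron gene, Slc11a2, had an SD of 0.33. At the other end, the Golgi zinc transporters Slc39a9 and Slc30a7 had SDs of 0.14 and 0.17. In the heat map of all members the rows of Slc40a1 and Slc11a1 carry the strongest colors.

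**Figure D1:**
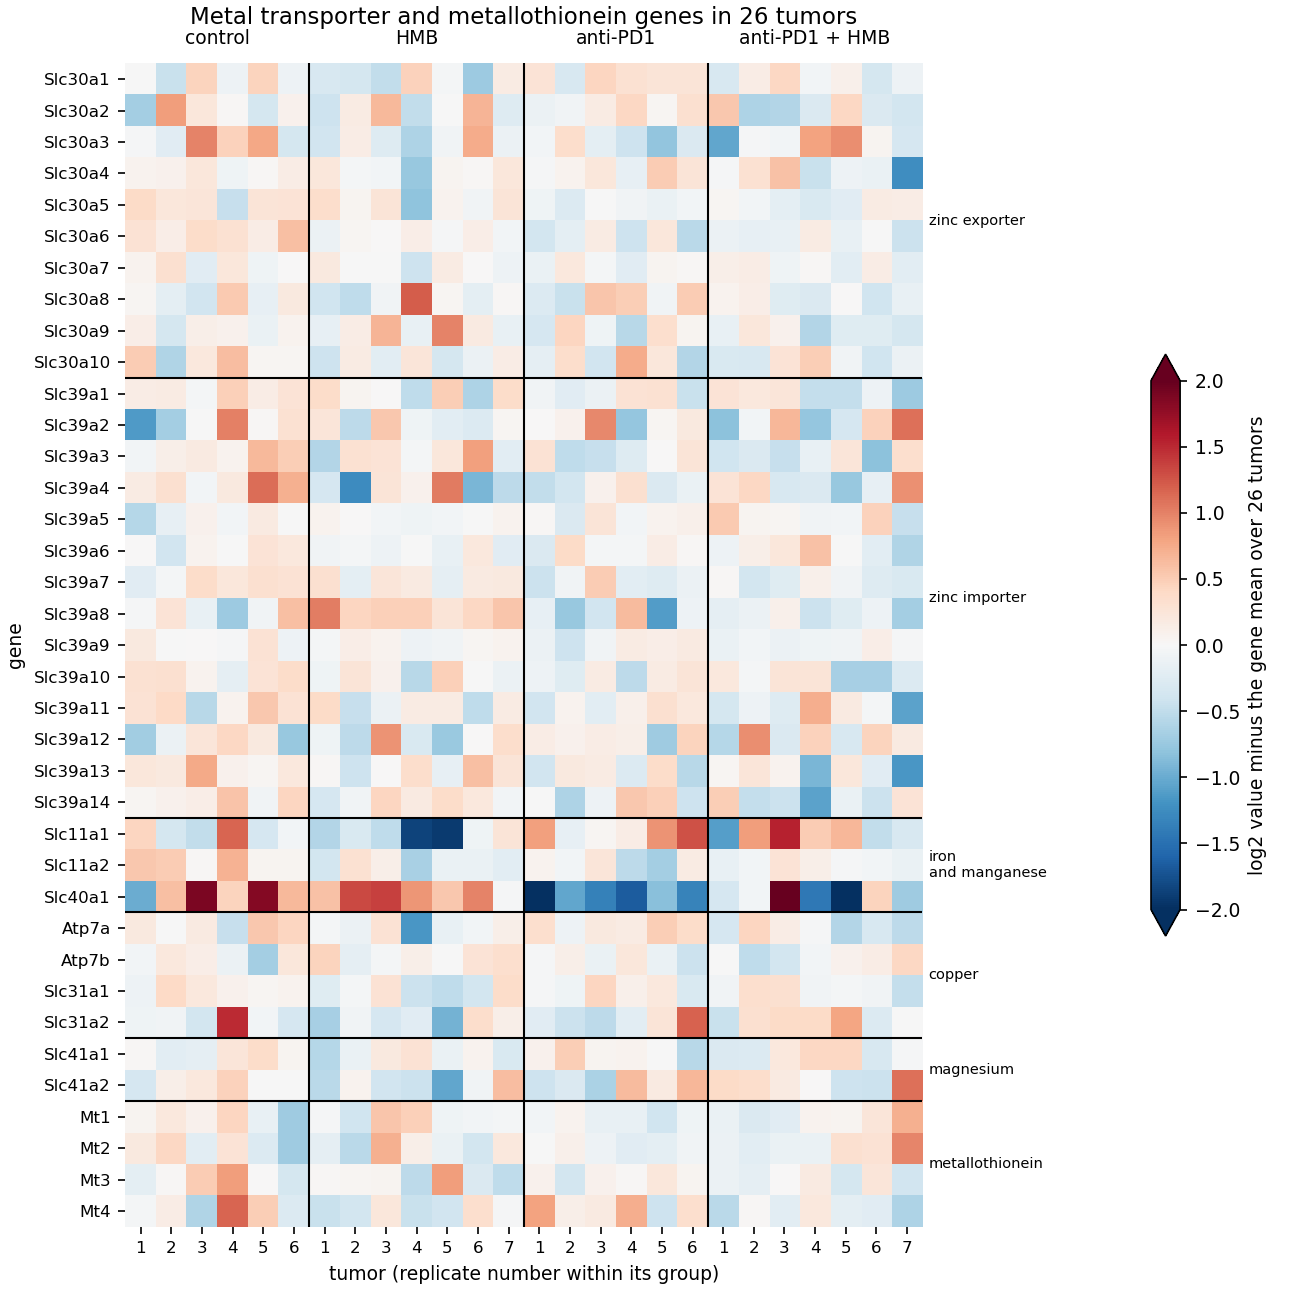
Log2 value of each of the 37 genes (rows, by class) in each of the 26 tumors (columns, by group), minus the gene's mean over all tumors, on a color scale from -2 to 2. The anti-PD1 tumors are low in Slc40a1, and HMB tumors 4 and 5 are low in Slc11a1.

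Diet and antibody were first compared with the control group, for which the 3 comparisons share the same 6 control tumors. With HMB, 11 members were higher and 26 lower than in control, with a median log2 difference of -0.13 where the median over all genes was -0.01. At an unadjusted limma p under 0.05, the threshold for a call from here on, 1 member was higher and 3 (8.11%) were lower, while 3.14% of all genes were higher and 3.79% lower. With anti-PD1 alone, 11 were higher and 26 lower (median -0.08, all genes -0.01), and 0 were called higher and 3 (8.11%) lower, against 2.41% and 3.59% of all genes. With both, 9 were higher and 28 lower (median -0.20, all genes -0.02), and 0 were called higher and 5 (13.5%) lower, against 3.42% and 4.71% of all genes. After Benjamini-Hochberg adjustment over 19505 genes, 0 members and 0% of all genes passed 0.05 in any of these comparisons by limma, so every difference given here failed the correction. At an unadjusted p under 0.05 the genes numbered 1352 for HMB, 1171 for anti-PD1 and 1586 for both.

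When the combination was set against anti-PD1 alone, 15 members were higher and 22 lower, with 1 called in each direction against 1.85% higher and 2.33% lower of all genes. Against HMB alone, 17 were higher and 20 lower, with 1 called higher and 2 lower against 4.71% and 4.1%. The HMB difference averaged over both antibody arms was below 0 for 29 of 37 members, where 53.3% of all genes were below 0. It was called higher for 0 and lower for 2, against 2.19% and 2.84% of all genes. The anti-PD1 difference averaged over both diets was called higher for 1 member and lower for 6 (16.2%), against 4.49% of all genes in each direction. The interaction of diet and antibody was called above 0 for 1 member and below 0 for 0, against 2.61% and 2.96%. By limma adjusted p, 0 members and 0% of genes passed in these comparisons too.

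**Figure D2:**
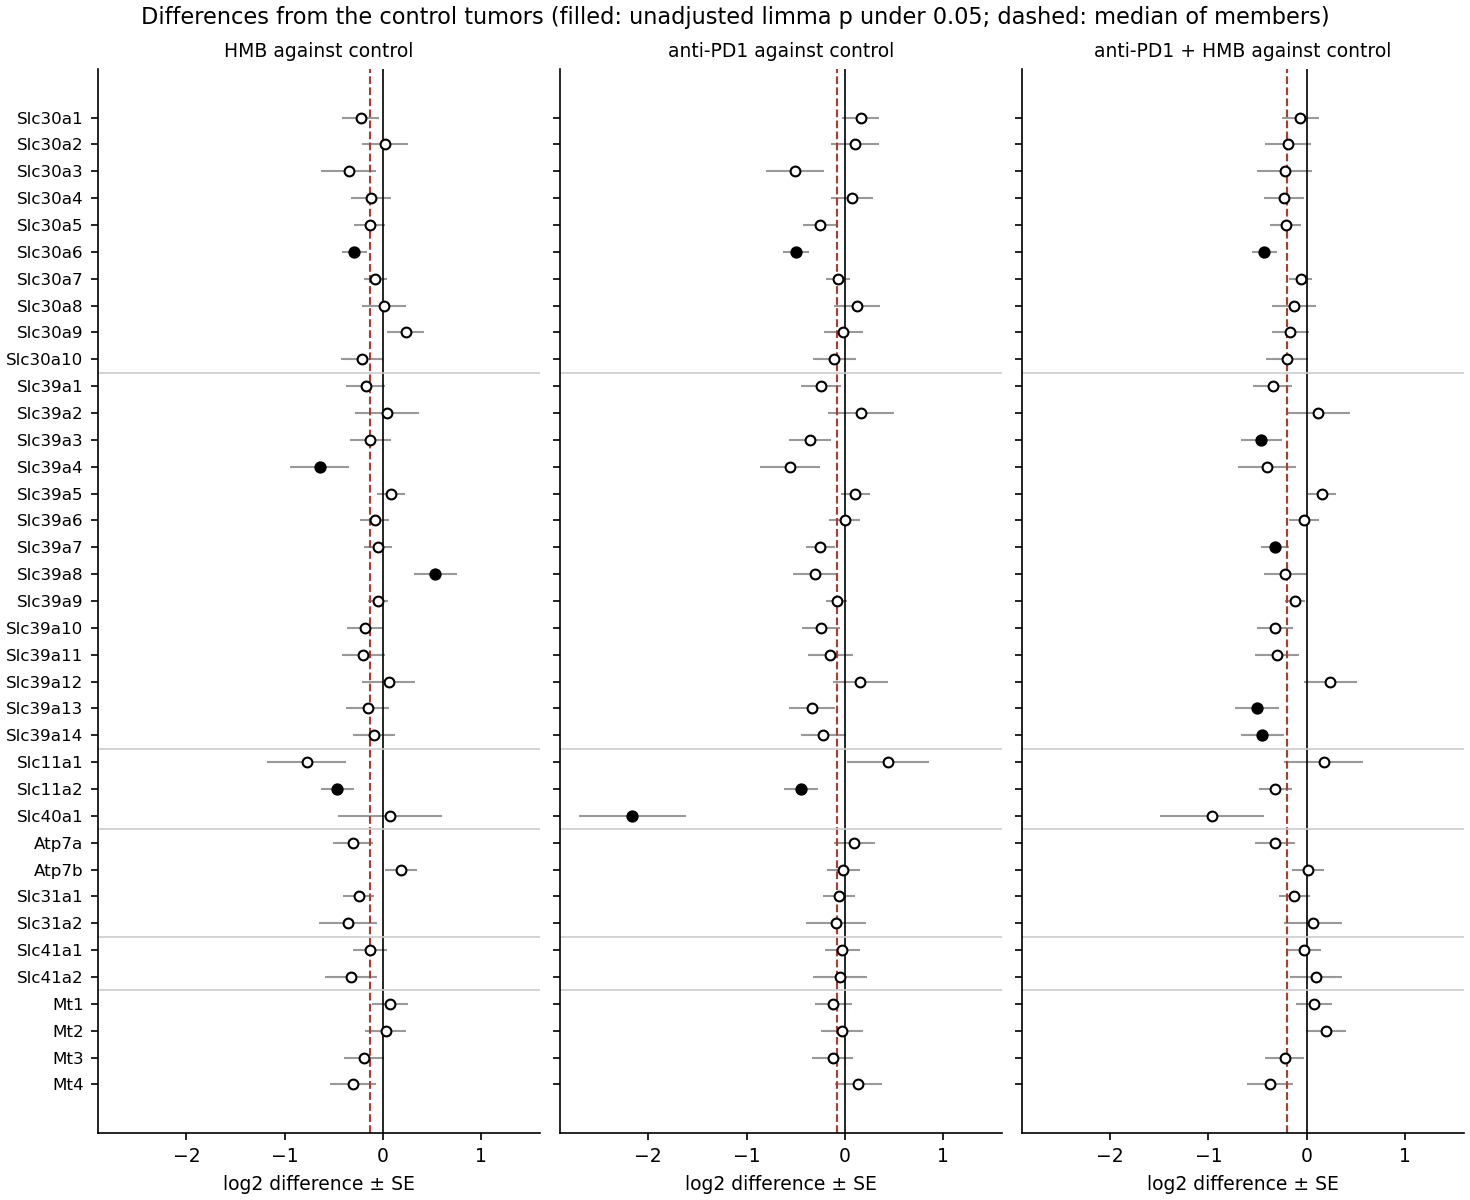
Log2 difference from control with its standard error for each of the 37 genes in the HMB, anti-PD1 and anti-PD1 + HMB groups, with filled points for an unadjusted limma p under 0.05 and a dashed line at the median of the members. Slc40a1 lies farthest from 0 with anti-PD1 (-2.16), and all 10 genes of the Slc30 family lie below 0 with the combination.

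Slc40a1, the gene of the iron exporter ferroportin, gave the largest difference of any member. It lay above the negative controls in 0 of 26 tumors, so its differences cannot be told from background signal. Slc40a1 ran from 7.06 to 9.94 in the control tumors (median 8.68) and from 8.03 to 9.42 in the HMB tumors (median 8.93). In the anti-PD1 tumors it ran from 5.76 to 7.21 (median 6.71), and in the anti-PD1 + HMB tumors from 5.90 to 10.72 (median 7.72). Thus 5 of 6 control tumors and all HMB tumors were above every anti-PD1 tumor, while the combination spread over the whole range.

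Slc40a1 was lower with anti-PD1 than in control, at a log2 difference of -2.16 (SE 0.55, 95% interval -3.29 to -1.03), with a limma adjusted p of 0.52 and an exact two-sided permutation p of 0.00433. Averaged over both diets, the anti-PD1 difference was -1.60 (SE 0.37, limma adjusted p = 0.21), which was the smallest adjusted p of any member in any comparison. HMB tumors, in contrast, stood 0.07 above control (SE 0.53), a sign that turned when control tumor 1 (-0.28), HMB tumor 2 (-0.02) or HMB tumor 3 (-0.02) was left out. With both treatments Slc40a1 differed from control by -0.96 (SE 0.53, limma adjusted p = 0.64), and it was 1.20 above anti-PD1 alone (SE 0.53, limma adjusted p = 0.999, exact permutation p = 0.0798).

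A single tumor carried part of this pattern. Anti-PD1 + HMB tumor 3 had the highest Slc40a1 value of all 26, 10.72. Without it the anti-PD1 difference averaged over diets was -1.84 with a limma adjusted p of 0.0347, the difference of the combination from control was -1.44, and that from anti-PD1 alone was 0.72. The last difference missed the unadjusted threshold there, and also without anti-PD1 tumor 1 (1.03), anti-PD1 tumor 4 (1.15) or anti-PD1 + HMB tumor 6 (1.09). The anti-PD1 difference from control stayed between -2.51 and -1.93 when each tumor was left out in turn. Over all 26 tumors the macrophage score moved little with Slc40a1 (Pearson r = -0.15, permutation p = 0.478, Spearman rho = -0.19). Within groups r was -0.10 in control, -0.07 with HMB, -0.93 with anti-PD1 and 0.22 with both, over 6 or 7 tumors each. With the macrophage score as a covariate the anti-PD1 difference was -2.17. The part of macrophages in these values was not tested.

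**Figure D3:**
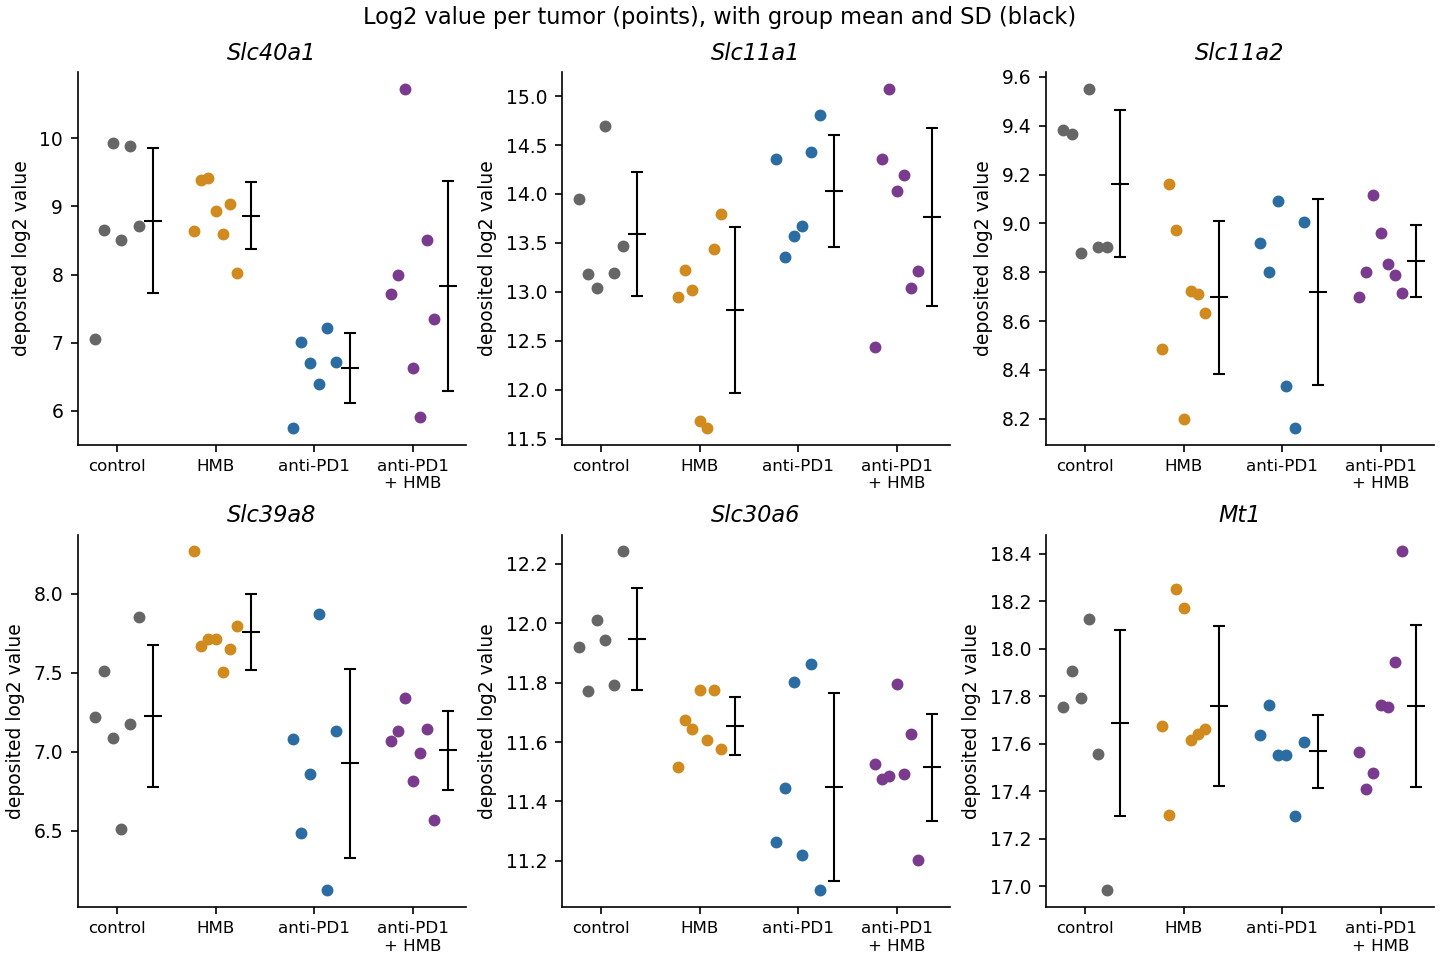
Log2 value of Slc40a1, Slc11a1, Slc11a2, Slc39a8, Slc30a6 and Mt1 in each tumor of the 4 groups, with the mean and SD of each group. Slc40a1 runs from 5.76 to 7.21 with anti-PD1, Slc39a8 is at 7.51 or above in every HMB tumor, and Mt1 overlaps in all groups.

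The RNA of Slc11a1, which encodes a phagosomal metal transporter of macrophages and neutrophils, followed another order. It ran from 13.04 to 14.70 in control (median 13.33), from 11.61 to 13.79 with HMB (median 13.02), from 13.36 to 14.80 with anti-PD1 (median 14.02) and from 12.43 to 15.07 with both (median 14.03). HMB tumors 4 and 5 were the lowest of all, and the 4 groups overlapped.

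The combination was 0.95 above HMB alone (SE 0.39, limma adjusted p = 0.46, exact permutation p = 0.0676), and anti-PD1 averaged over both diets was 0.70 above its absence (SE 0.28, limma adjusted p = 0.45). HMB differed from control by -0.77 (SE 0.40, limma adjusted p = 0.73). The difference between the combination and HMB no longer passed the unadjusted threshold without HMB tumor 4 (0.76), HMB tumor 5 (0.75) or anti-PD1 + HMB tumor 3 (0.73).

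Slc11a1 tracked the macrophage markers. Over 26 tumors its correlation with the mean score of the macrophage list, from which no member was taken, was r = 0.69 (permutation p = 6e-05, adjusted p = 0.00666 over 111 relations of 37 genes with 3 scores). Spearman's rho was 0.59 (permutation p = 0.00182, adjusted p = 0.178). After each group's mean was removed the Pearson value was 0.65 with an adjusted p of 0.125 by permutation, so the call was lost. It was 0.67 without the 2 tumors of most distant score, HMB tumor 5 and anti-PD1 + HMB tumor 7, with the group means kept. Within groups r was 0.47 in control, 0.94 with HMB, 0.32 with anti-PD1 and 0.49 with both, over 6 or 7 tumors each. The macrophage scores of HMB tumors 4 and 5 were -0.78 and -0.89, and 15 of 20 macrophage markers were higher with the combination than with HMB alone. With the score as a covariate the Slc11a1 difference was 0.67 in place of 0.95.

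Slc11a2, the ferrous iron importer DMT1, was lower in each treated group than in control. It lay above the negative controls in 0 of 26 tumors, so its differences cannot be told from background signal. It ran from 8.88 to 9.55 in control (median 9.13), from 8.20 to 9.16 with HMB (median 8.71), from 8.16 to 9.09 with anti-PD1 (median 8.86) and from 8.70 to 9.12 with both (median 8.80). Control tumors occupied the upper part of the range, with overlap in every comparison. The HMB difference was -0.47 (SE 0.17, 95% interval -0.81 to -0.12, limma adjusted p = 0.69, exact permutation p = 0.0245), and the anti-PD1 difference was -0.44 (SE 0.18, limma adjusted p = 0.73, exact permutation p = 0.0628). With both it was -0.32 (SE 0.17), which did not pass even the unadjusted threshold. The interaction, which is the anti-PD1 difference under HMB minus that without HMB, was 0.59 (SE 0.24, limma adjusted p = 0.88), and was called.

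Fibroblast markers moved with Slc11a2 in the opposite direction (r = -0.56, Spearman rho = -0.53, adjusted permutation p = 0.0755 for r over the 111 relations), and 16 of 18 were higher with HMB than in control. With the fibroblast score as a covariate the HMB difference of Slc11a2 was -0.31 and the interaction 0.42, neither past the unadjusted threshold. The anti-PD1 difference failed that threshold without control tumor 4, anti-PD1 tumor 4 or anti-PD1 tumor 5, at -0.37, -0.37 and -0.33.

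**Figure D4:**
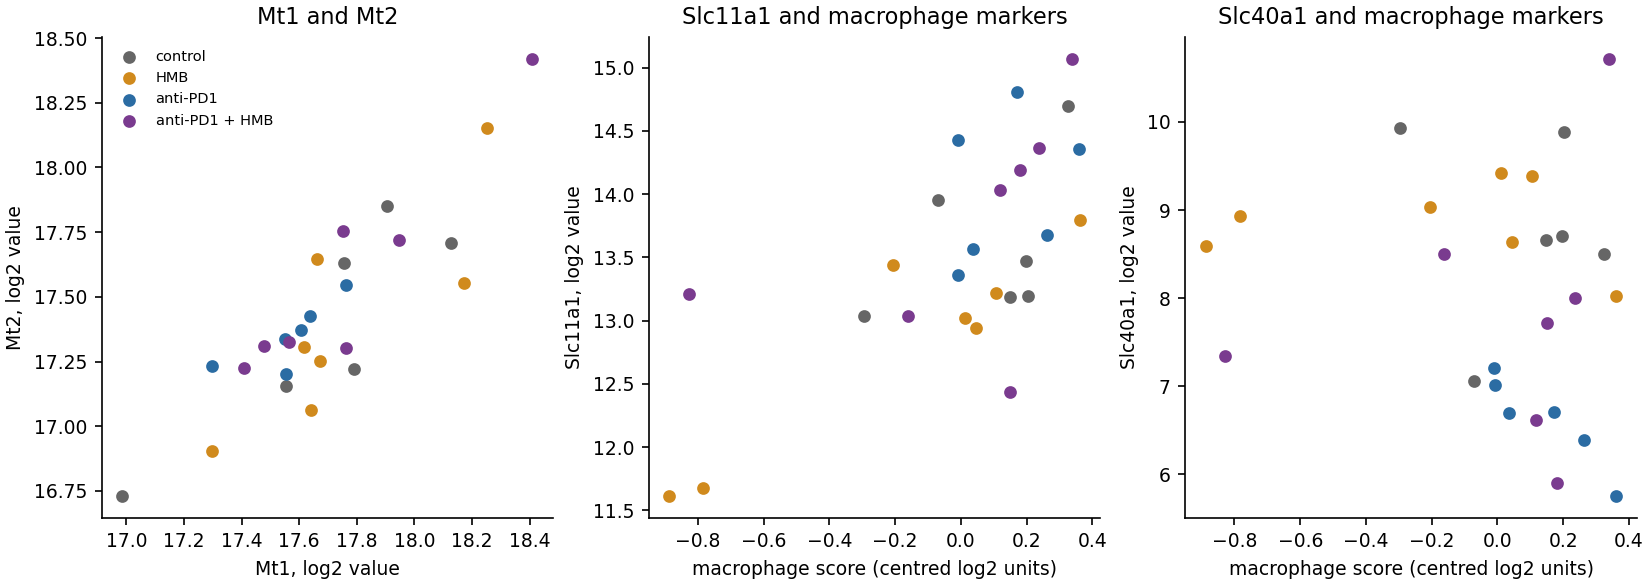
Mt1 against Mt2, and Slc11a1 and Slc40a1 against the mean score of the macrophage markers, in log2 units with 1 point per tumor and a color per group. Mt1 and Mt2 vary together (r = 0.87), Slc11a1 varies with the macrophage score (r = 0.69), and Slc40a1 shows r = -0.15.

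Of the wider iron genes, 38 of the 39 listed were measured, with 1 called higher with HMB, 1 with anti-PD1 and 3 with both, and 0 called lower. Over all genes, 3.14%, 2.41% and 3.42% were called higher in these comparisons, so 1 of 38 is near the background. Cd163, the macrophage receptor that takes up hemoglobin, was 1.46 above control with HMB (SE 0.44, limma adjusted p = 0.69) and 1.08 above it with both (SE 0.44). Hmox1, the heme oxygenase that frees iron from heme, was 1.47 above control with both (SE 0.50, limma adjusted p = 0.54), against 0.72 with HMB and 0.46 with anti-PD1. The ferritin light chain Ftl1 was 0.28 above control with both, and Slc25a37, which imports iron into mitochondria, was 0.75 above control with anti-PD1 (SE 0.27, limma adjusted p = 0.68). Hmox1 and Ftl1 lay above the negative controls in 25 and 26 tumors, but Cd163 and Slc25a37 did so in 0, so their values cannot be told from background signal. Cd163 also stands in the macrophage list, of which 16 of 20 genes were lower with HMB than in control.

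Among the zinc exporters, Slc30a6 was called lower in all 3 comparisons with control. Slc30a6 forms a complex with Slc30a5 that brings zinc into the early secretory pathway. It ran from 11.77 to 12.24 in control (median 11.93), from 11.52 to 11.78 with HMB (median 11.64), from 11.10 to 11.86 with anti-PD1 (median 11.35) and from 11.20 to 11.80 with both (median 11.49). The control tumors held the highest values, and the ranges met only at their edges.

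Slc30a6 was lower than control in each treated group, with a log2 difference of -0.50 with anti-PD1 (SE 0.13, limma adjusted p = 0.52, exact permutation p = 0.013), of -0.43 with both (SE 0.13, limma adjusted p = 0.53, exact permutation p = 0.00233) and of -0.29 with HMB (SE 0.13, limma adjusted p = 0.69, exact permutation p = 0.00175). When each tumor was left out, the first difference stayed between -0.58 and -0.43 and the second between -0.48 and -0.37, both past the unadjusted threshold. The HMB difference lost it without HMB tumor 1 (-0.27), control tumor 3 (-0.28) or control tumor 6 (-0.24). Averaged over both diets, the anti-PD1 difference was -0.32 (SE 0.09, limma adjusted p = 0.28). All 3 comparisons rest on the same control tumors.

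Slc30a5, its partner, was -0.13, -0.26 and -0.21 from control with HMB, anti-PD1 and both, with a standard error of 0.16 each. Control tumor 4 stood apart with a value of 11.43, where the other control tumors were at or above 12.11. With both treatments all 10 genes of the zinc exporter family, including the manganese exporter Slc30a10, were lower than control. Their differences ran from -0.43 to -0.06, and only that of Slc30a6 was called. Over all genes, 53.1% were lower in this comparison. Of the 10, 5 lay above the negative controls in 0 tumors. With HMB 3 exporters were higher and 7 lower, and with anti-PD1 4 were higher and 6 lower. Slc30a9, a mitochondrial zinc exporter, was lower with both than with HMB alone, at a log2 difference of -0.40 (SE 0.18, limma adjusted p = 0.55). Its 7 values with both ran from 10.56 to 11.37 (median 10.90) and those with HMB from 10.97 to 12.12 (median 11.28). The ranges overlapped, and the difference was -0.18 without the 3 tumors high in muscle markers.

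Among the zinc importers was the only member with a comparison, out of the 5 pairwise ones tested, in which the groups did not overlap. Slc39a8, which imports zinc and manganese, ran from 6.51 to 7.85 in control (median 7.20), from 7.51 to 8.27 with HMB (median 7.71), from 6.13 to 7.87 with anti-PD1 (median 6.97) and from 6.57 to 7.34 with both (median 7.07). Every HMB tumor was above every anti-PD1 + HMB tumor, a pattern found downward in 10 genes, or 0.0513% of all. Upward patterns were not counted, and the count was not set against the number that chance would give. Slc39a8 lay above the negative controls in 0 of 26 tumors, so its differences cannot be told from background signal.

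Slc39a8 was lower with both than with HMB, at -0.75 (SE 0.21, limma adjusted p = 0.25, exact permutation p = 0.000583). That exact p is fixed by the lack of overlap and adds nothing to it. The difference stayed between -0.81 and -0.67 when each tumor was left out. HMB was 0.53 above control (SE 0.22, limma adjusted p = 0.69, exact permutation p = 0.0134), which lost the unadjusted threshold without HMB tumor 1 (0.45) or control tumor 4 (0.39). Averaged over diets the anti-PD1 difference was -0.52 (SE 0.15, limma adjusted p = 0.29). Fibroblast markers moved with Slc39a8 (r = 0.50, rho = 0.48, adjusted permutation p = 0.127 for r). With their score as a covariate the HMB difference was 0.34 and the difference between both and HMB was -0.62.

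The importers as a class lay mostly below control, although few were called. Of 14 importers, 11 were below control with both treatments, 10 with HMB and 10 with anti-PD1, with class medians of -0.31, -0.09 and -0.23. Over all genes, 53.1%, 52.5% and 50.8% were below control in these comparisons. Of the 14, 7 lay above the negative controls in 0 tumors. With both, 4 of the 14 were called lower, where 4.71% of all genes were, and Slc39a2, Slc39a5 and Slc39a12 were above control by 0.12, 0.16 and 0.24 without a call. Slc39a13, which frees zinc from vesicles of connective tissue cells, ran from 10.34 to 11.74 (median 11.55) against 11.53 to 12.25 in control (median 11.70), a difference of -0.50 (SE 0.22, limma adjusted p = 0.59, exact permutation p = 0.0828). Slc39a7, which releases zinc from the endoplasmic reticulum, ran from 10.73 to 11.20 (median 10.85) against 10.87 to 11.47 (median 11.35), a difference of -0.32 (SE 0.14, limma adjusted p = 0.59, exact permutation p = 0.0256). The ranges overlapped for each of them.

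The plasma membrane importer Slc39a3 was lower than control with both, at -0.46 (SE 0.21, limma adjusted p = 0.59), as was Slc39a14, which carries zinc, manganese and non-transferrin iron, at -0.45 (SE 0.22, limma adjusted p = 0.61). Slc39a3 lay above the negative controls in 0 of 26 tumors. Leaving out 1 tumor ended the call of Slc39a14 in 16 of 26 cases, of Slc39a7 in 8, of Slc39a3 in 6 and of Slc39a13 in 3. Without the 3 tumors high in muscle markers the differences were -0.37 for Slc39a13, -0.25 for Slc39a14 and -0.35 for Slc39a3, none past the unadjusted threshold. In the same comparison 30 of 30 skeletal muscle markers were higher, 15 of them called, with a median difference of 1.92, and 16 of 16 T cell markers were higher, 10 of them called, with a median of 1.39. Above the negative controls in all 26 tumors were 0 markers of either list. In 0 tumors above it were 13 of the muscle and 6 of the T cell markers. The T cell scores ran from -0.25 to 3.95 with both (median 0.66) and from -1.54 to 0.05 in control (median -0.20). The 3.95 was that of anti-PD1 + HMB tumor 7, and the next tumor of its group was at 1.22. Tumor 7 also had the highest adipocyte score (5.58) and a macrophage score of -0.83. The part of T cells and of other cell types in these values was not tested. With anti-PD1 averaged over diets, Slc39a7 was at -0.26 (SE 0.10, limma adjusted p = 0.40), Slc39a3 at -0.34 (SE 0.15, limma adjusted p = 0.47) and Slc39a13 at -0.34 (SE 0.16, limma adjusted p = 0.54).

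Slc39a4, the zinc importer of the gut epithelium, was among the most variable members and ran from 5.01 to 6.19 in control (median 5.32), from 3.81 to 6.10 with HMB (median 4.72), from 4.57 to 5.38 with anti-PD1 (median 4.85) and from 4.30 to 5.97 with both (median 4.90). All groups overlapped, far under the negative control level. The HMB difference was -0.65 (SE 0.30, limma adjusted p = 0.71, exact permutation p = 0.0967), and 6 single tumors ended its call when left out, at -0.63 to -0.48. Slc39a2, the importer of skin and some immune cells, ran from 3.43 to 5.68 over all tumors and differed by 0.04, 0.16 and 0.12 from control with HMB, anti-PD1 and both. In contrast to these, Slc39a9 of the Golgi ran from 12.01 to 12.71 over all tumors.

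The metallothioneins Mt1 and Mt2, whose transcription rises with free zinc in many cell types, gave no call in any comparison. Mt1 ran from 16.98 to 18.13 in control (median 17.77), from 17.30 to 18.25 with HMB (median 17.66), from 17.30 to 17.76 with anti-PD1 (median 17.58) and from 17.41 to 18.41 with both (median 17.75). Mt2 ran from 16.73 to 17.85 (median 17.43), from 16.90 to 18.15 (median 17.31), from 17.20 to 17.54 (median 17.35) and from 17.22 to 18.42 (median 17.32) in the same order. Ranges overlapped throughout, and both genes were well above the negative controls in every tumor.

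The Mt1 difference from control was 0.07 with HMB (95% interval -0.30 to 0.45), -0.12 with anti-PD1 (95% interval -0.50 to 0.27) and 0.07 with both (95% interval -0.30 to 0.45). For Mt2 the differences were 0.03, -0.03 and 0.20. Mt1 and Mt2 moved together across the 26 tumors with r = 0.87 (permutation p = 1e-05, the smallest that 100000 permutations can give) and rho = 0.73 (permutation p = 3e-05). The r was 0.88 after removal of group means, 0.78 without HMB tumor 3 and anti-PD1 + HMB tumor 7, and 0.80 to 0.94 within the 4 groups. The paralogs are similar in sequence, and cross-hybridization between their probe sets was not tested.

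Mt3 ran from 2.63 to 3.99 and Mt4 from 2.64 to 4.43 over all tumors, within the range of the negative controls. Mt4 ran from 2.64 to 3.47 with both (median 3.05) and from 2.85 to 4.07 with anti-PD1 (median 3.52), a difference of -0.51 (SE 0.23, limma adjusted p = 0.999, exact permutation p = 0.0326), and 5 single tumors ended this call when left out. HMB averaged over antibody arms gave -0.41 for Mt4 (SE 0.17, limma adjusted p = 0.91), which was -0.48 with the muscle score as a covariate and -0.29, no longer called, with the macrophage score.

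Mtf1, the zinc sensor that drives Mt1 and Mt2, was lower than control with HMB, at -0.44 (SE 0.15, limma adjusted p = 0.69), and with both, at -0.34 (SE 0.15, limma adjusted p = 0.58). With anti-PD1 it was at -0.28 (SE 0.15), which was not called. Its targets Mt1 and Slc30a1 showed no call in any of these comparisons. In the list of zinc partners, 9 of the 10 listed were measured, with 0 called higher and 1, 1 and 2 called lower with HMB, anti-PD1 and both, where 3.79%, 3.59% and 4.71% of all genes were called lower. The second gene with a call, S100a9 of calprotectin, was lower than control with both, at -1.22 (SE 0.39, limma adjusted p = 0.53), and with anti-PD1, at -0.83 (SE 0.40, limma adjusted p = 0.83). Its partner S100a8 was at -0.85 with both, which was not called, and Tmc8, a regulator of zinc transport in lymphocytes, was at 0.79, also not called. Mtf1, S100a8, S100a9 and Tmc8 lay above the negative controls in 0 of 26 tumors, so these differences cannot be told from background signal. S100a8 and S100a9 stand in the neutrophil list. Of 14 neutrophil markers, 11 were lower with anti-PD1 than in control, 2 of them called, and 12 of the 14 lay under the negative control level in every tumor. The part of neutrophils in these values was not tested.

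The 4 copper transporters gave no call against control. Slc31a1, the high-affinity copper importer, correlated with the macrophage score at r = 0.66 (permutation p = 0.00021, adjusted p = 0.0117) and rho = 0.55 (permutation p = 0.00456, adjusted p = 0.178), but the value was 0.62 with group means removed (adjusted permutation p = 0.125), 0.47 without the same 2 tumors, and -0.04, 0.82, -0.34 and 0.87 within control, HMB, anti-PD1 and both. Atp7a, the copper pump of the Golgi, ran from 9.42 to 10.41 in control (median 10.06), from 8.71 to 10.16 with HMB (median 9.81), from 9.77 to 10.37 with anti-PD1 (median 10.14) and from 9.28 to 10.30 with both (median 9.55). Atp7a lay above the negative controls in 0 of 26 tumors. HMB averaged over antibody arms gave -0.36 (SE 0.14, limma adjusted p = 0.91) for Atp7a, with overlapping groups. In that comparison 30 of 30 skeletal muscle markers were higher, 23 of them called, and 16 of 20 macrophage markers were lower, 5 of them called. The Atp7a difference was -0.40 with the muscle score as a covariate and -0.26, no longer called, with the macrophage score.

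Of the copper partners, 16 of 18 were measured, with 1 higher and 1 lower call with HMB, 0 and 1 with anti-PD1, and 1 and 1 with both. Over all genes, 3.14%, 2.41% and 3.42% were called higher and 3.79%, 3.59% and 4.71% lower, so 1 of 16 is near the background. Lox, the copper-dependent oxidase that crosslinks collagen, was 1.81 above control with HMB (SE 0.87), beside 16 of 18 fibroblast markers that were higher in the same comparison, whose part was not tested. The copper chaperone Cox17 was 0.43 above control with both, and Dbh, a copper enzyme of noradrenaline synthesis, was at -0.61 from control with anti-PD1. Mtf1, the gene called lower with HMB and with both, belongs to this list as well. Cox17 lay above the negative controls in 26 tumors, Lox in 13 and Dbh in 0.

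The magnesium transporters gave no call. Slc41a1 differed from control by -0.13, -0.03 and -0.03 with HMB, anti-PD1 and both, and Slc41a2 by -0.33, -0.05 and 0.10. Of 20 measured magnesium and manganese partners, 1 was called lower with both, Tusc3, a magnesium transporter and subunit of the oligosaccharyltransferase, at -0.37, and 0 were called with HMB or anti-PD1. Over all genes, 4.71% were called lower with both. Trpm6, a magnesium channel, was at -0.47 with both, the magnesium transport protein Cnnm3 at -0.39 with anti-PD1, and the phosphatase Ptp4a2, a partner of the Cnnm family, at 0.24 with anti-PD1 and with both, none of them called. Tusc3 and Ptp4a2 lay above the negative controls in 25 and 26 tumors, and Trpm6 and Cnnm3 in 0.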

How the data were processed

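RNA of whole Panc02 tumors was extracted by the authors with TRIzol and RNeasy and hybridized to Clariom S mouse arrays, 1 array per tumor. The deposited table holds 1 processed log value per probe set and tumor, taken here as log2. Neither log base nor normalization method is given in the sources used here. Of 28846 probe sets, 19572 had 1 gene symbol, for 19505 genes, and 55 genes had several probe sets, represented by their brightest probe set. Groups were taken from the sample titles, whose sizes differ from those in the series' design text. The tumors are separate samples by their labels. No batch labels were used here.

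All 26 tumors entered 1 limma 3.58.1 fit (R 4.3.3) with a mean per group and 8 contrasts. P-values were adjusted by Benjamini-Hochberg over 19505 genes, and exact two-sided permutation tests over tumors were added for single members after the data were seen. Correlations used 100000 permutations. Calls in the text are unadjusted limma p-values under 0.05. Scores are mean log2 values of a marker list, each gene centered on its mean over the tumors. The fit was tested on simulated data. The number of arrays limits the precision. Promoters came from RefSeq tables of GRCm38.p6, and motifs were searched in Python 3.11.15 with pandas 2.3.3.

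The members and the lists of partners and markers were chosen with earlier results of these data known. The text names the 3 members of smallest p per comparison, the 4 of largest SD, the metallothioneins, Slc11a1 and Slc40a1, and from each partner list the 4 genes of smallest p. The alternatives tried were quantile normalization, a filter on dim genes, a trended and robust variance, array weights, the compared groups alone, the mean of probe sets, the replicate number as a block, muscle and macrophage scores as covariates, the methods' t-test, and leaving out each tumor. A fibroblast covariate and a fit without the 3 tumors high in muscle markers were added after the data were seen. A comparison of metallothionein protein sequences was not run.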

Additional observations from a re-analysis of the deposited data

Results flagged for a closer look

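Within each group of 6 or 7 tumors, the highest and lowest value of each member was tested for a gap to its neighbor that exceeds Dixon's 95% critical value. This marked 13 of 148 sets, where chance alone marks about 1 in 20. HMB tumor 4 stood apart in 4 of them, being lowest for the copper pump Atp7a (8.71) and the zinc exporters Slc30a4 (11.93) and Slc30a5 (11.08), and highest for Slc30a8 (4.32). Its array also had the highest 95th percentile of the negative controls (11.28) and the fewest genes above it (3772). The part of the array in these values was not tested. Control tumor 4 was lowest for Slc30a5 (11.43) and highest for Slc31a2 (11.92), and control tumor 3 was highest for Slc39a13 (12.25). Anti-PD1 tumor 2 was lowest for Mt3 (2.78) and Slc30a1 (8.28), and anti-PD1 tumor 5 for Slc39a12 (3.67). HMB tumor 5 was highest for Mt3 (3.99), HMB tumor 1 for Slc39a8 (8.27), and anti-PD1 + HMB tumor 6 for Slc39a9 (12.56).

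Slc11a2 was marked because the anti-PD1 difference ran in opposite directions without and with HMB, at -0.44 against control and 0.15 against HMB. Every anti-PD1 tumor lay below the control mean of 9.16. Every anti-PD1 + HMB tumor lay above the HMB mean, but the lowest did so barely, at 8.6979 against 8.6978. The anti-PD1 + HMB values of 8.70 to 9.12 lay inside the HMB range of 8.20 to 9.16. Slc11a2 lay above the negative controls in 0 of 26 tumors. The interaction of 0.59 had an unadjusted limma p of 0.0202 and an adjusted p of 0.88.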

How the results depend on the processing

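A filter kept genes above the negative controls in at least 6 tumors. With it, the members called at an unadjusted limma p under 0.05 went from 4 to 1 for HMB against control and from 3 to 1 for anti-PD1. They went from 2 to 0 for the combination against anti-PD1 and from 2 to 0 for HMB averaged over antibody arms. For anti-PD1 averaged over diets they went from 7 to 4. The filter removed called members that lay above the negative controls in 0 tumors, such as Slc40a1, Slc11a2 and Slc39a8. With the fibroblast score as a covariate, HMB against control gave 1. Array weights gave 5 for anti-PD1, 1 for the combination against anti-PD1 and 3 for the interaction in place of 1. For the combination against control, 5 calls became 3 in each of the fits on the compared groups alone, with the replicate number as a block, with the muscle score and without the 3 tumors high in muscle markers. For the combination against anti-PD1, 2 calls became 1 with the replicate block and with the macrophage score. HMB averaged over antibody arms gave 5 with the muscle score and 1 with the macrophage score. The interaction gave 2 with the macrophage score and 2 without the tumors high in muscle markers. Over all genes, 0 passed an adjusted p of 0.05, except 1 (Pdp2) for HMB averaged over antibody arms with quantile normalization and with array weights. The causes of the other changes were not tested.

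Leaving out each tumor gave 1 to 5 called members for HMB, 2 to 4 for anti-PD1 and 2 to 6 for both against control, 0 to 3 for both against anti-PD1, 2 to 5 for both against HMB, 2 to 4 for averaged HMB, 5 to 8 for averaged anti-PD1 and 1 to 3 for the interaction. Genes passing adjustment ran from 0 to 1, except 0 to 4 for both against HMB and 0 to 0 for both against control or anti-PD1. The difference of Slc40a1 with HMB, 0.07, ran from -0.28 (without control tumor 1) to 0.30 and turned also without HMB tumor 2 (-0.018) or HMB tumor 3 (-0.025), and that of Slc11a1 with both, 0.17, ran from -0.044 (without anti-PD1 + HMB tumor 3) to 0.40. Of the single-member differences under other settings, 325 kept their direction and side of the threshold, 42 lost the threshold and 3 gained it. Under left-out tumors these were 791, 80 and 9, and 4 turned. Replicate numbers did not pair the tumors, with a mean correlation of 0.0097 over 37 same-numbered pairs and -0.0011 over 216 others. Values under the negative control level, as for 19 members, have no known relation to RNA amount.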

Other observations

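Pairs of members that correlated most over the 26 tumors are given as a description, since all share the same arrays. Slc31a2, the copper transporter of late endosomes, followed Slc11a1 (r = 0.73, and 0.74 after removal of group means). The copper pump Atp7a followed the zinc exporters Slc30a4 (0.66 and 0.62) and Slc30a5 (0.54 and 0.63). Slc30a4 ran against Mt1 (-0.66 and -0.64), and the Golgi exporter Slc30a7 against Slc30a1 (-0.58 and -0.67). Single tumors stood at the ends of some pairs. HMB tumor 4 was the lowest of its group for Atp7a, Slc30a4 and Slc30a5. Anti-PD1 + HMB tumor 7 was the lowest of all for Slc30a4 (11.45) and the highest for Mt1 (18.41). The pairs were not recomputed without these tumors. Atp7a and Slc30a1 lay above the negative controls in 0 of 26 tumors.

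The core of the antioxidant response element, TGACNNNGC, was searched after the data were seen and was found in 9 of 36 member promoters (25%) and in 12.4% of all promoters.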
